A study of Homo sapiens with 6 samples.

Results

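The Wnt ligands, their frizzled receptors, the dishevelled adaptor proteins and the TCF/LEF transcription factors were examined in DU145 cells, a human prostate cancer cell line. Members were taken by name: every gene of the WNT and FZD families with a plain numbered symbol, DVL1 to DVL3, TCF7, TCF7L1, TCF7L2 and LEF1. The rule found 36 members (19 ligands, 10 receptors, 3 dishevelled genes and 4 TCF/LEF factors) among the 27381 genes of the deposited table. Cells that received Cas9 with a scrambled sgRNA (Scr) were compared with cells in which CD24 (CD24 KO) or RCC2 (RCC2 KO) had been targeted by CRISPR/Cas9, with 2 libraries per label. The knockout lines were grown from sorted, GFP-positive cells as clones, and the labels do not say which clone was sequenced. The table gives 1 FPKM value (fragments per kilobase of transcript, scaled to the number of mapped fragments) per gene and condition, so 3 columns stand for 6 libraries. No spread between libraries can be derived from it, no test between conditions could be made, and every difference given here lacks a replicate check. The column for RCC2 KO has a name that fits the first of its libraries as well as both, so it may rest on 1 library. The table carries no counts, and the depth behind each value is unknown.

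Wnt ligands are secreted lipid-modified proteins that bind frizzled receptors at the cell surface. With LRP5 or LRP6 as co-receptors they recruit dishevelled, which halts the degradation of β-catenin, and β-catenin then enters the nucleus and acts on target genes through TCF/LEF factors. Other ligands, WNT5A above all, act through frizzled and dishevelled on cell shape and movement without β-catenin. The study sequenced RNA to find genes that differ in either knockout, and the members encode the steps from ligand to DNA.

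The RNA of the targeted genes did not follow the labels. CD24 was at 93.2 FPKM for Scr, 309 FPKM for the column labelled CD24 KO and 214 FPKM for that labelled RCC2 KO. The values of RCC2 were 37.8, 14.2 and 41.8 FPKM in the same order, so each direction given rests on the labels as they stand, and CD24 KO and RCC2 KO stand throughout for the libraries labelled so. Of the markers of the cell line, KRT8, KRT18, EPCAM and CDH1 together summed to 715, 387 and 736 FPKM in Scr, CD24 KO and RCC2 KO, and all 4 were above 0 in every column. KRT8 and KRT18, whose positions in the table overlap, were each at least 2-fold lower than Scr in the libraries labelled CD24 KO, with log2 differences of -1.17 and -1.05, and CDH1 was at 27.9, 52.6 and 23.7 FPKM. KLK3, which encodes prostate-specific antigen, was listed at 0 in every column. Markers of other cell types were near 0. The 3 fibroblast genes (COL1A1, COL1A2 and DCN) summed to between 0.432 and 0.742 FPKM, the endothelial genes PECAM1 and CDH5 to between 0.129 and 0.156 FPKM, and the leukocyte genes PTPRC and CD3E were listed at 0 throughout.

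A member was taken as expressed in a column at 1 FPKM or more. By this measure 15 members were expressed in Scr, 16 in the libraries labelled CD24 KO and 14 in those labelled RCC2 KO, and 17 were expressed in at least 1 column. These 17 were 4 of 19 ligands (WNT3, WNT5A, WNT5B and WNT7B), 7 of 10 receptors (FZD1 to FZD7), all 3 dishevelled genes and 3 of 4 TCF/LEF factors. Of all 27381 genes, 12144, 12462 and 11933 reached this minimum in Scr, CD24 KO and RCC2 KO, and 12822 did so in at least 1 column. The order of the columns was the same over all genes, so it is not particular to the members. WNT5A and WNT5B passed only through the CD24 KO column, where they were highest. FZD3 and FZD4 each fell below the minimum in 1 column. Just inside the minimum lay WNT5B, with a highest value of 1.05 FPKM, and just outside it WNT2B, with a highest value of 0.869 FPKM. Summed over all 36 members the FPKM was 171 in Scr, 175 in CD24 KO and 177 in RCC2 KO. The columns lay closer together in this sum than in the sums of the ligands or of the TCF/LEF factors.

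**Figure D1:**
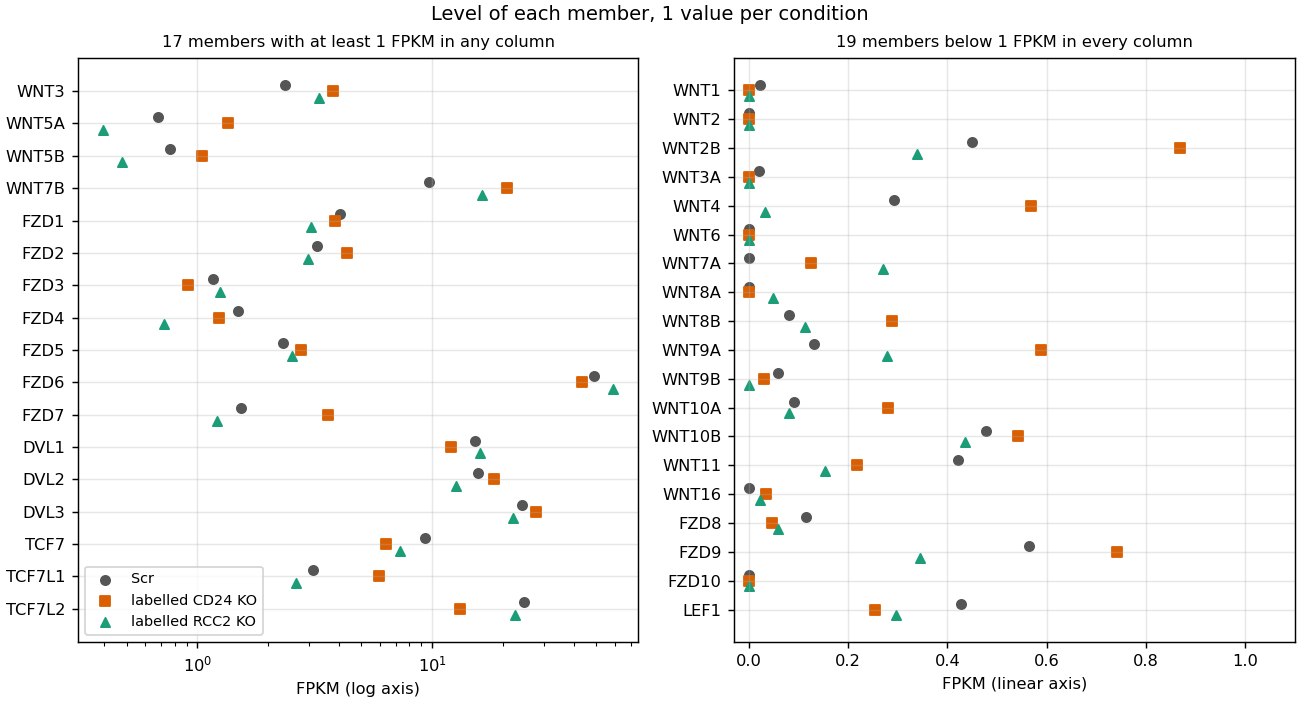
FPKM of the 36 members in the 3 columns, with 1 point per condition (grey circles Scr, orange squares libraries labelled CD24 KO, green triangles libraries labelled RCC2 KO), on a log axis for the 17 expressed members at left and on a linear axis for the other 19 at right. FZD6 has the highest value in every column, between 43.6 and 58.8 FPKM, and no member at right exceeds 0.869 FPKM.

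WNT7B, a ligand that signals through β-catenin, was the most abundant ligand in every column. It was at 9.68 FPKM for Scr, 20.8 FPKM for the column labelled CD24 KO and 16.3 FPKM for that labelled RCC2 KO. Scr thus had the lowest value and CD24 KO the highest. The FPKM ratio to Scr was 2.15 in CD24 KO and 1.68 in RCC2 KO, and on the log2(FPKM + 1) scale used for all differences, which understates the change of low values, the differences were 1.03 and 0.70. Both use the same Scr value. Among the 12822 genes with at least 1 FPKM in any column, 2.48% lay as high or higher in CD24 KO and 0.951% in RCC2 KO. WNT7B lies on chromosome 22 from 46316248 to 46373008 in the coordinates of the table, which were read as hg19, and its position overlaps no other gene there. Here as elsewhere in a bulk culture, a change in the number of expressing cells and a change in RNA per cell cannot be told apart.

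WNT3, another ligand of the β-catenin route, followed at 2.35 FPKM for Scr, 3.79 FPKM for the column labelled CD24 KO and 3.30 FPKM for that labelled RCC2 KO. Its order across the columns was that of WNT7B, with log2 differences from Scr of 0.51 and 0.36. WNT5A was at 0.682 FPKM for Scr, 1.35 FPKM for the column labelled CD24 KO and 0.398 FPKM for that labelled RCC2 KO. Its close relative WNT5B was at 0.766, 1.05 and 0.480 FPKM in the same order. For these WNT5 ligands CD24 KO was therefore the highest column and RCC2 KO the lowest, and the FPKM ratio of RCC2 KO to CD24 KO was 0.296 for WNT5A and 0.459 for WNT5B. Summed over the 19 ligands the FPKM was 15.5 in Scr, 30.5 in CD24 KO and 22.2 in RCC2 KO, which is 1.97 and 1.43 times Scr. Without WNT7B the sums of the other 18 ligands were 5.84, 9.73 and 5.95 FPKM. The higher sum in RCC2 KO thus lay in WNT7B, whereas in CD24 KO the sum of the other ligands was higher as well. Not each of them was, since 4 of the 15 ligands below 1 FPKM were lower than Scr in CD24 KO.

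The remaining 15 ligands stayed below 1 FPKM in every column. WNT2 and WNT6 were listed at 0 throughout. WNT1 and WNT3A, the ligands most often used to drive β-catenin signaling in experiments, had a value only in Scr, at 0.0214 and 0.0196 FPKM. For CD24 KO, 8 of the 15 were above their Scr value, 4 were below and 3 were at 0 in both columns. The largest of these values were those of WNT2B, WNT9A, WNT4 and WNT10B, at 0.869, 0.588, 0.569 and 0.542 FPKM in CD24 KO. In Scr they were at 0.450, 0.131, 0.293 and 0.478 FPKM, and in RCC2 KO at 0.338, 0.278, 0.0314 and 0.435 FPKM. In the libraries labelled RCC2 KO 5 of the 15 were above Scr and 8 below. Of all 5812 genes of the table that were above 0 in some column but never reached 1 FPKM, 54.4% were higher than Scr in CD24 KO. In RCC2 KO 39.7% were. The 15 ligands include WNT2 and WNT6, at 0 throughout, so the counts and these shares cover unlike sets. Counts this small cannot be set apart from the shares. WNT7A was listed at 0 for Scr and reached 0.125 FPKM in CD24 KO against 0.270 FPKM in RCC2 KO. WNT11, which acts mainly without β-catenin, was highest in Scr, at 0.421 FPKM against 0.218 and 0.154 FPKM.

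**Figure D2:**
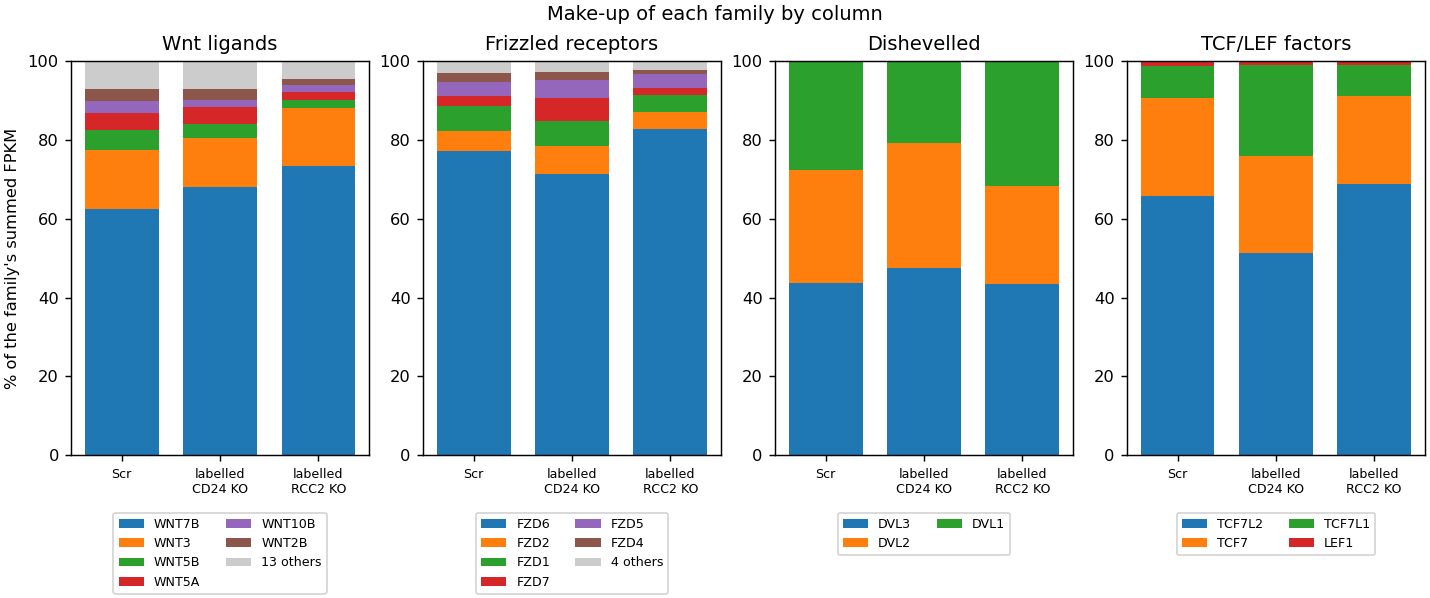
Share of each member in the summed FPKM of its family, in percent, for Scr and for the libraries labelled CD24 KO and RCC2 KO (1 bar per condition, no replicates), with up to 6 members drawn separately. WNT7B took 62.4%, 68.1% and 73.3% of the ligands, FZD6 77.2%, 71.4% and 82.9% of the receptors, and TCF7L1 8.31%, 23.0% and 8.02% of the TCF/LEF factors.

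Among the receptors FZD6, known for its part in planar cell polarity and hair patterning, was at 48.9 FPKM for Scr, 43.6 FPKM for the column labelled CD24 KO and 58.8 FPKM for that labelled RCC2 KO. It stood far above every other frizzled gene. In Scr its level was 12.1 times that of FZD1, the next receptor. Its log2 difference from Scr was -0.16 in CD24 KO and 0.26 in RCC2 KO, and the difference for CD24 KO came to 0.0022 when the columns were rescaled to a common total. FZD3, the nearest relative of FZD6, was at 1.16, 0.912 and 1.25 FPKM. It took the same order across the columns as FZD6, at a small fraction of its level.

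FZD7, a receptor linked to β-catenin signaling in stem cells and many cancers, was at 1.53 FPKM for Scr, 3.60 FPKM for the column labelled CD24 KO and 1.21 FPKM for that labelled RCC2 KO. CD24 KO thus stood above both other columns, with an FPKM ratio to Scr of 2.35 and a log2 difference of 0.86. The RCC2 KO column was at 0.335 of the CD24 KO column, a log2 difference of -1.06. Its relatives FZD1 and FZD2 were at 4.04 and 3.24 FPKM in Scr. They were at 3.84 and 4.34 FPKM in CD24 KO, and RCC2 KO had 3.06 and 2.96 FPKM. FZD1, FZD2 and FZD7, which form a subfamily by sequence, together summed to 8.81, 11.8 and 7.24 FPKM. FZD7 was the lowest of the 3 genes in every column, and came nearest to FZD1 in CD24 KO. FZD7 lies on chromosome 2 from 202899310 to 202903160 in the table's coordinates, with no other gene at its position.

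FZD5, a receptor with roles in the eye and the intestine, was at 2.31, 2.76 and 2.53 FPKM in Scr, CD24 KO and RCC2 KO. The columns were close to each other for this gene. FZD4, the receptor of norrin in retinal vessels, was at 1.49, 1.24 and 0.725 FPKM. RCC2 KO was the lowest column for FZD4, at 0.486 of Scr and a log2 difference of -0.53, and 4.89% of the genes compared lay as low or lower. The table merges FZD4 with PRSS23 and OR7E2P into the same position, and PRSS23 was at 59.5, 83.0 and 68.8 FPKM, so fragments could have been divided between these genes. FZD9 stayed at or below 0.742 FPKM, FZD8 at or below 0.114 FPKM, and FZD10 was listed at 0 in every column. The 9 receptors other than FZD6 summed to 14.5, 17.5 and 12.2 FPKM, so CD24 KO was the highest column for their sum and the lowest for FZD6.

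DVL1, DVL2 and DVL3 encode the adaptors that connect frizzled receptors to every known branch of the pathway. DVL3 was the most abundant at 24.0 FPKM for Scr, 27.6 FPKM for the column labelled CD24 KO and 22.1 FPKM for that labelled RCC2 KO. DVL2 was at 15.7, 18.4 and 12.6 FPKM, and DVL1 at 15.2, 12.1 and 16.02 FPKM. DVL2 and DVL3 were thus highest in CD24 KO and lowest in RCC2 KO, while DVL1 had the opposite order. The FPKM ratio of DVL3 to DVL1 was 1.58 in Scr, 2.29 in CD24 KO and 1.38 in RCC2 KO. DVL1 shares its position in the table with TAS1R3, which was at 0.403, 0.951 and 0.327 FPKM. The sums of the 3 genes were 55.0, 58.1 and 50.7 FPKM, and the largest log2 difference of a dishevelled gene from Scr was -0.32, for DVL1 in CD24 KO.

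TCF7L2, the factor through which β-catenin acts in the intestine, was the most abundant TCF/LEF gene at 24.7 FPKM for Scr, 13.2 FPKM for the column labelled CD24 KO and 22.6 FPKM for that labelled RCC2 KO. CD24 KO stood below both other columns, at 0.533 of Scr and a log2 difference of -0.86. Among the genes compared, 4.66% lay as low or lower. TCF7L1, a relative that mostly represses its targets in the absence of β-catenin, was at 3.12, 5.92 and 2.63 FPKM. CD24 KO was here the highest column, at 1.89 times Scr and a log2 difference of 0.75. The FPKM ratio of TCF7L2 to TCF7L1 was 7.91 in Scr, 2.22 in CD24 KO and 8.59 in RCC2 KO. TCF7, which is itself switched on by the pathway in many cells, was at 9.35 FPKM for Scr, 6.35 FPKM for the column labelled CD24 KO and 7.26 FPKM for that labelled RCC2 KO, so both knockout columns lay below the Scr value they share. LEF1, an activator prominent in lymphocytes and hair follicles, stayed at 0.427, 0.254 and 0.296 FPKM. Its position overlaps LEF1-AS1, which did not exceed 0.0630 FPKM. The 4 factors together summed to 37.6, 25.7 and 32.8 FPKM, which is 0.683 of Scr in CD24 KO and 0.872 in RCC2 KO.

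The regions before the starts of TCF7L1 and TCF7L2 are shown because these factors differed furthest from Scr within their family and did so in opposite directions in the libraries labelled CD24 KO. They come from RefSeq (GRCh38.p14), cover the 250 bases before the annotated start on the plus strand, and lie at chr2:85133142-85133391 and chr10:112949997-112950246. Capitals mark GC boxes (GGGCGG, or CCGCCC on the other strand), which Sp1-type factors bind.
TCF7L1: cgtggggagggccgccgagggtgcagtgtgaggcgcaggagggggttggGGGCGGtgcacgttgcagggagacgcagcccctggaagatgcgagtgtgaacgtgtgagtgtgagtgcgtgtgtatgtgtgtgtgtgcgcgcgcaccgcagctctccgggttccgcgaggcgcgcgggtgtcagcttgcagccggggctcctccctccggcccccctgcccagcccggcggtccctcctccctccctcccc
TCF7L2: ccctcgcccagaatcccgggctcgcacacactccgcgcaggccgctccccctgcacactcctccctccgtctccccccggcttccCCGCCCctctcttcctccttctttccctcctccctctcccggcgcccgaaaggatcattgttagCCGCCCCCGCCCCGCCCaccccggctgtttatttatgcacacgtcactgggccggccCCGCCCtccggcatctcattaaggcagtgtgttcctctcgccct
TCF7L1 held 1 GC box and TCF7L2 held 5, some of which overlap. RefSeq promoters matched 28 of the 36 members with 34 starts, and a GC box was present before 26 of these starts (76.5%), against 42.6% of all 35116 promoters. The letters CTTTGA, 1 form of the TCF/LEF core, or the reverse TCAAAG, were found before 0 of the 34 starts. They were found in 11.2% of all promoters, and other forms of the TCF/LEF motif were not searched. The letters TATAAA or TTTATA were found before 3 of the 34 starts (8.82%) and in 10.7% of all promoters. TCF7L2 has 2 further starts in RefSeq, beyond the windows at chr10:113126383-113126632 and chr10:113129021-113129270, and TCF7 has 2 starts. The table gives 1 value per gene, so the use of these starts cannot be read from it.

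With each column of the table set against Scr, 1 of the 17 expressed members was at least 2-fold higher in the libraries labelled CD24 KO on the log2(FPKM + 1) scale (WNT7B) and 0 were at least 2-fold lower. Of all 12822 genes compared, 2.67% were at least 2-fold higher and 3.03% at least 2-fold lower. At a minimum of 1.5-fold on the same scale, 3 members were higher (WNT7B, FZD7 and TCF7L1) and 1 was lower (TCF7L2). The shares of all genes were 9.55% and 11.6%. In all, 10 of the 17 were above Scr and 7 below, against 47.0% of all genes above Scr. The median log2 difference of the members was 0.19, beside -0.03 for all genes. All 4 expressed ligands, 3 of 7 receptors, 2 of 3 dishevelled genes and 1 of 3 TCF/LEF factors were above Scr. Since WNT5A and WNT5B entered only through their CD24 KO values, the count of ligands was in part fixed by the expression minimum.

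In the libraries labelled RCC2 KO, 0 members were at least 2-fold higher or lower than Scr on the log2(FPKM + 1) scale. The shares of all genes were 0.406% higher and 0.796% lower. As plain FPKM, FZD4 was more than 2-fold lower, at 0.486 of Scr. The share of all genes beyond 2-fold was computed on the log2(FPKM + 1) scale only, not for plain FPKM. At 1.5-fold on the log2(FPKM + 1) scale, 1 member was higher (WNT7B) and 0 were lower, against 1.45% and 3.82% of all genes. Above Scr were 6 of the 17 members (WNT3, WNT7B, FZD3, FZD5, FZD6 and DVL1) and 11 were below, while 49.3% of all genes were above Scr. The median log2 difference was -0.12, beside -0.0036 for all genes. The members below Scr included TCF7, TCF7L1 and TCF7L2, with log2 differences of -0.32, -0.18 and -0.12.

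Set directly against CD24 KO on the log2(FPKM + 1) scale, the libraries labelled RCC2 KO had 1 member at least 2-fold lower (FZD7). On this scale 0 were at least 2-fold higher, and the shares of all genes were 4.3% lower and 4.02% higher. As plain FPKM, WNT5A, WNT5B and TCF7L1 were also more than 2-fold lower, at 0.296, 0.459 and 0.445 of CD24 KO. The shares of all genes do not cover plain FPKM, for which none was computed. At 1.5-fold on the log2(FPKM + 1) scale, 3 members were lower (FZD7, TCF7L1 and WNT5A) and 1 was higher (TCF7L2). The shares of all genes were 14.1% and 13.8%. TCF7L1 and WNT5A had log2 differences of -0.93 and -0.75, and TCF7L2 one of 0.74. Lower than in CD24 KO were 12 of the 17 members, and the 5 higher ones were FZD3, FZD6, DVL1, TCF7 and TCF7L2. The median log2 difference was -0.31, beside 0.02 for all genes. WNT3 and WNT7B were lower in RCC2 KO, as were WNT5A and WNT5B, for which the expression minimum fixed this direction. With 17 members, counts of 0 to 3 genes are too small to be set apart from the shares of all genes.

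**Figure D3:**
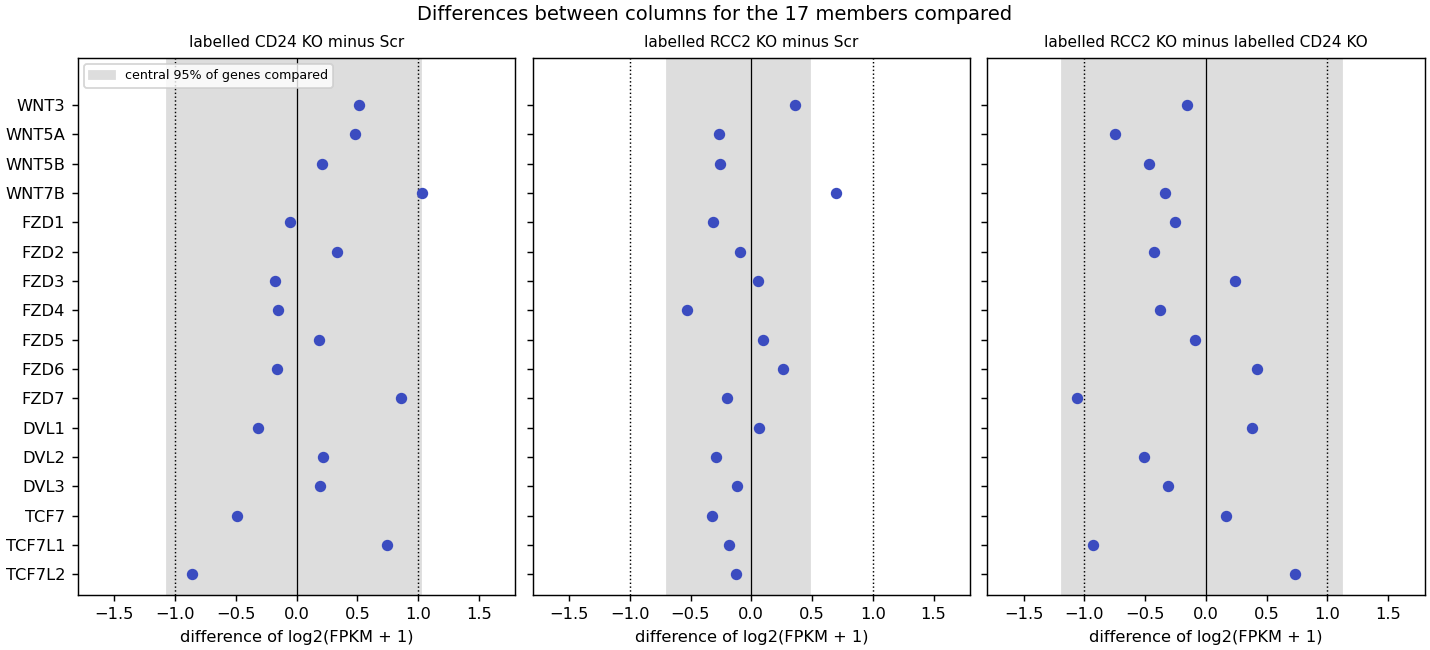
Difference of log2(FPKM + 1) between columns for the 17 members with at least 1 FPKM in any column (1 blue point per member), with the range that holds the central 95% of the 12822 genes compared in grey and the 2-fold minimum as dotted lines. WNT7B lies at the upper edge of the grey range in CD24 KO minus Scr and above it in RCC2 KO minus Scr, and the other members lie within it in all 3 panels.

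The genes that surround these members in the pathway were taken from lists and described in the same way. PORCN, the enzyme that attaches the lipid to Wnt ligands, was at 5.45 FPKM for Scr, 7.48 FPKM for the column labelled CD24 KO and 5.31 FPKM for that labelled RCC2 KO. WLS, which carries the ligands to the cell surface, was at 16.9, 22.9 and 22.1 FPKM, at a position that also holds DIRAS3, GNG12 and GNG12-AS1. Both secretion genes were highest in CD24 KO, and neither differed by 2-fold between any columns.

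Of the 6 co-receptors and other Wnt receptors 5 were compared. In CD24 KO 2 of them were at least 2-fold lower than Scr and 0 higher, against 3.03% and 2.67% of all genes. LRP5, a co-receptor of the β-catenin route, was at 29.1 FPKM for Scr, 12.9 FPKM for the column labelled CD24 KO and 20.4 FPKM for that labelled RCC2 KO. ROR1, a receptor kinase for WNT5A, was at 15.1, 6.41 and 21.7 FPKM, with log2 differences from Scr of -1.12 and 0.50 and with ROR1-AS1 at the same position. WNT5A itself was at 0.682, 1.35 and 0.398 FPKM. It passed the expression minimum only through CD24 KO, so its highest place there was fixed and gives no contrast with ROR1. PTK7, a co-receptor in planar cell polarity, was at 17.8, 12.4 and 9.07 FPKM and lowest in RCC2 KO. LRP6 and RYK stayed close to Scr, and ROR2 was below 1 FPKM throughout.

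Frizzled receptors are removed from the surface by the ubiquitin ligases RNF43 and ZNRF3, which R-spondins block by way of LGR receptors. All 4 of these 9 genes that could be compared were lower than Scr in the libraries labelled CD24 KO, with a median log2 difference of -0.51, beside 47.0% of all genes above Scr and a median of -0.03. RSPO3 was at 11.1 FPKM for Scr, 2.86 FPKM for the column labelled CD24 KO and 7.58 FPKM for that labelled RCC2 KO. At a log2 difference of -1.64 it was the only gene of this list at least 2-fold lower on the log2(FPKM + 1) scale. Of all genes, 3.03% were at least 2-fold lower in CD24 KO. RNF43 was at 2.55, 1.09 and 3.53 FPKM, so as plain FPKM it too was more than 2-fold lower in CD24 KO. The share of 3.03% is on the log2(FPKM + 1) scale, and none was computed for plain FPKM. The position of RNF43 overlaps SUPT4H1, TSPOAP1 and TSPOAP1-AS1. LGR4 was at 23.1, 19.2 and 25.3 FPKM, the highest level on the list. RCC2 KO exceeded CD24 KO for all 4 genes, RSPO3 and RNF43 at least 2-fold, while 51.6% of all genes were higher and 4.02% at least 2-fold higher.

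Among dishevelled partners and planar cell polarity core genes, no gene compared differed from Scr by 2-fold or more on the log2(FPKM + 1) scale. This held for both lists and in either knockout. Of all genes, 2.67% were at least 2-fold higher and 3.03% lower in CD24 KO, and 0.406% and 0.796% in RCC2 KO. With so few genes on the lists, a count of 0 cannot be set apart from these shares. As plain FPKM, for which no share of all genes was computed, PRICKLE1 was more than 2-fold higher in CD24 KO. CELSR2 was more than 2-fold lower in RCC2 KO by that measure. Of the 8 dishevelled partners compared, DAAM1, a formin that binds dishevelled, was at 6.33 FPKM for Scr, 9.54 FPKM for the column labelled CD24 KO and 4.05 FPKM for that labelled RCC2 KO. CSNK1E, a kinase that phosphorylates dishevelled, was at 95.2, 98.0 and 69.01 FPKM, and its position also holds LOC400927 and a readthrough of both genes. NKD2, a feedback inhibitor that binds dishevelled, was at 9.78, 7.997 and 6.45 FPKM. Of the 7 planar cell polarity genes compared, 5 were above Scr in CD24 KO and 3 in RCC2 KO, beside 47.0% and 49.3% of all genes. VANGL2, PRICKLE1 and CELSR2 were at 3.03, 1.01 and 3.72 FPKM in Scr, 4.63, 2.46 and 5.28 FPKM in CD24 KO, and 2.03, 1.55 and 1.86 FPKM in RCC2 KO. For CELSR2 and DAAM1 the RCC2 KO column was at least 2-fold below the CD24 KO column, with log2 differences of -1.14 and -1.06. Of all genes, 4.3% lay at least 2-fold lower in this comparison.

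All 14 cofactors of TCF/LEF factors were compared, and their medians stayed near 0, at 0.08 in CD24 KO and 0.04 in RCC2 KO. TLE4, a corepressor of the Groucho family, was the only cofactor at least 2-fold lower than Scr, and it was so in both knockouts. Of all genes, 3.03% were at least 2-fold lower in CD24 KO and 0.796% in RCC2 KO. TLE4 was at 12.3 FPKM for Scr, 5.28 FPKM for the column labelled CD24 KO and 5.60 FPKM for that labelled RCC2 KO. Both comparisons thus rest on the same Scr value. The related TLE1 and TLE2 were highest in CD24 KO, at 8.94 and 33.1 FPKM against 7.18 and 25.96 FPKM in Scr and 5.63 and 19.7 FPKM in RCC2 KO. CTNNB1, which encodes β-catenin, was at 63.1, 61.8 and 67.3 FPKM and thus close to level.

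Feedback targets of TCF/LEF factors went both ways. Of 12 listed genes, which include the members TCF7 and LEF1, 7 were compared. In both knockouts 3 were above and 4 below Scr, beside 47.0% (CD24 KO) and 49.3% (RCC2 KO) of all genes above Scr. None was at least 2-fold changed against Scr on the log2(FPKM + 1) scale. The shares of all genes were 2.67% higher and 3.03% lower in CD24 KO, and 0.406% and 0.796% in RCC2 KO. A count of 0 among 7 genes cannot be set apart from them. As plain FPKM, RNF43 in CD24 KO and APCDD1 in RCC2 KO were more than 2-fold lower, with no share of all genes computed for that measure. AXIN2, the target most widely read as a measure of the pathway, was at 1.27 FPKM for Scr, 1.27 FPKM for the column labelled CD24 KO and 0.819 FPKM for that labelled RCC2 KO. APCDD1, a membrane inhibitor of the pathway, was at 1.41, 1.60 and 0.624 FPKM. CCND1, which encodes cyclin D1, was at 154, 109.8 and 181 FPKM, and MYC was at 77.6, 94.1 and 72.4 FPKM. CCND1 and MYC, both common readouts of β-catenin, therefore took opposite orders across the columns. LGR5 was listed at 0 in every column.

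**Figure D4:**
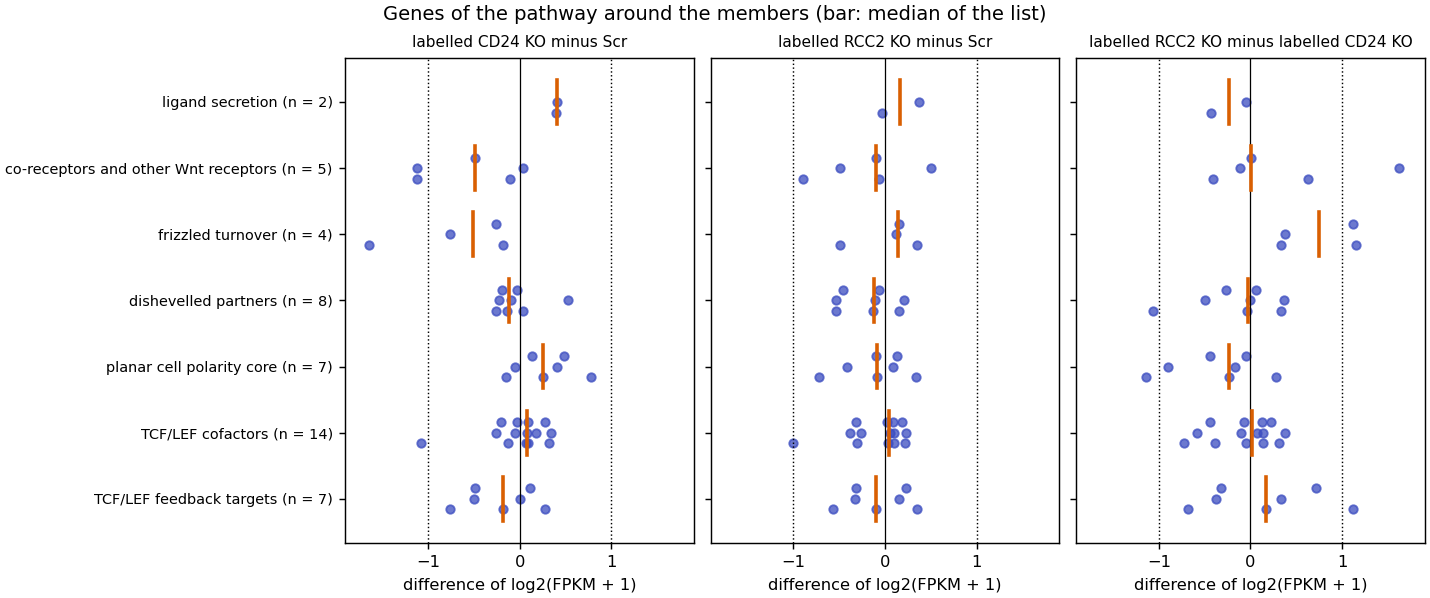
Difference of log2(FPKM + 1) between columns for the compared genes of 7 pathway lists (1 point per gene, moved up or down only to separate points), with the median of each list as an orange bar and the 2-fold minimum as dotted lines. In CD24 KO minus Scr, RSPO3 lies lowest at -1.64, with LRP5, ROR1 and TLE4 also beyond the minimum, and in RCC2 KO minus Scr TLE4 is beyond it.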

How the data were processed

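RNA-seq of 6 DU145 libraries was analysed from the deposited table, which holds 1 FPKM value per gene and condition as the authors computed it, and how the libraries of a condition were combined is not given in the sources used here. The submitters' processing notes name HISAT, StringTie, Cufflinks and GATK with no role or version, and the genome build is not given in the sources used here. The positions of 15.8% of the 24864 genes with a unique symbol in GENCODE 29, and of 1 of the 36 members, overlapped those on GRCh38, so coordinates were read as hg19 and starts written from 1.

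Genes with at least 1 FPKM in any column (12822) were compared as log2(FPKM + 1). A difference of at least 2-fold was counted, and 1.5-fold as an alternative. With 1 value per condition the limma fit that had been planned for separate libraries could not be made, and no SD or p-value is given. Levels of different genes were compared as FPKM, which is per transcript length. All columns of the table were used. The members, lists and minimums were chosen with earlier results of these data known. Pathway lists were written from general knowledge of the pathway, and the 3 genes with the largest difference in any comparison were named from each, with a few others named after their values were seen.

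The calculations were checked on simulated data with known changes. Other pseudocounts, filters, scalings and fold minimums were tried. The labels name a TruSeq RNA kit and the study's methods a stranded TruSeq kit, so reads of overlapping genes may not have been separated by strand. Python 3.11.15, NumPy 2.4.6, pandas 2.3.3 and matplotlib 3.10.9 were used.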

Additional observations from a re-analysis of the deposited data

How the results depend on the processing

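No paired analysis was possible because the table holds 1 value per condition, and for the same reason no replicate could be left out. The count of members at least 2-fold higher in CD24 KO than in Scr, 1 in the main analysis, was 2 with a pseudocount of 0.1 and 0 with a pseudocount of 5. Against CD24 KO, 1 member was at least 2-fold lower in RCC2 KO. This count was 3 with a pseudocount of 0.1, 0 with a pseudocount of 5, 0 with quantile normalization and 2 after rescaling to a common total. The share of all genes called was not computed under the other pseudocounts and scalings. These counts therefore cannot be read as results about the members. The 1.5-fold minimum gave 3 higher and 1 lower in CD24 KO, 1 higher in RCC2 KO, and 3 lower and 1 higher in RCC2 KO against CD24 KO.

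The median log2 difference of the members in CD24 KO moved from 0.19 to 0.085 with a pseudocount of 5, 0.056 without a filter, 0.076 with quantile normalization and 0.30 after rescaling. Between RCC2 KO and CD24 KO it moved from -0.31 to -0.13, -0.097, -0.15 and -0.46 under the same settings. Rescaling raised the median of all genes in CD24 KO from -0.03 to 0.11 and lowered it between RCC2 KO and CD24 KO from 0.02 to -0.12, and the members' values are to be read against these shifts. Of all genes called at 2-fold, 66.6% were then higher in CD24 KO than in Scr, against 46.8%, and 28.2% had their higher value in RCC2 KO when it was set against CD24 KO, in place of 48.3%. FZD1 and FZD6 changed sign in CD24 KO after rescaling, at 0.075 and 0.0022, and FZD5 did so between RCC2 KO and CD24 KO with quantile normalization, at 0.098. The other differences of the 17 members kept their sign under the other pseudocounts, scalings and filters tried, of which the minimum of 1 FPKM in every column held only 13 members.

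A minimum of 0.5 FPKM gave 18, 22 and 15 expressed members in Scr, CD24 KO and RCC2 KO, and a minimum of 5 FPKM gave 7, 8 and 7, in place of 15, 16 and 14. All genes were not counted at these other minimums. Without DVL1, whose position overlaps other genes, DVL3 took 60.5%, 60.0% and 63.6% of its family, in place of 43.7%, 47.6% and 43.5%. A version that leaves out only members overlapping a gene above 0 was chosen after seeing the data and gave the same DVL3 values. FZD6 and TCF7L2 overlap small RNA genes listed at 0, so their shares have no value under the stricter version. The unknown depth limits all values below 1 FPKM most.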
